A study of Homo sapiens with 7 samples.

Results

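The genes described are 10 genes of the hypoxia response and of glycolysis, taken by symbol from a table of 21305 genes measured in 501Mel, a pigmented human melanoma cell line. They are HIF1A, SLC2A1, HK2, PFKFB3, PGK1, LDHA, VEGFA, ADM, BNIP3 and NDRG1, and all 10 were found. The line was used as pools of cells that carried a short hairpin RNA switched on by doxycycline and had been selected with puromycin. The control hairpin was directed at the bacterial gene lacZ (shlacZ, 3 libraries), and 2 hairpins, sh4 (2 libraries) and sh8 (2 libraries), were directed at the long non-coding RNA GRASLND. All 7 libraries, controls included, came from cells given doxycycline. The question put to the data was how each hairpin changed these genes against shlacZ, and whether sh4 and sh8 differed.

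HIF-1 is a transcription factor made of an oxygen-regulated subunit, HIF1A, and a constant subunit, ARNT. In normal oxygen the prolyl hydroxylases EGLN1, EGLN2 and EGLN3 mark HIF1A for destruction by VHL, so that its activity is set largely at the protein level, which RNA-seq does not see. Stabilised HIF-1 binds the letters ACGTG or GCGTG in promoters and enhancers and raises genes for glucose uptake, glycolysis, lactate formation, blood vessel growth and mitochondrial turnover. Melanoma cells often run glycolysis at a high rate even with oxygen present, and in melanocytic cells HIF1A is a known target of the lineage factor MITF.

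Under sh4, 3 of the 10 genes rose (NDRG1, SLC2A1 and HIF1A), where 10.5% of all genes tested rose, and 2 fell (HK2 and LDHA), where 11.9% of all genes fell. Under sh8, SLC2A1 rose (1.38% of all genes) and the other 9 did not pass the test. The glucose transporter gene SLC2A1 was thus higher with either hairpin, about 2-fold (a ratio of means of 2.10 under sh4 and 1.96 under sh8). HIF1A was the 1 gene of the 10 for which sh4 and sh8 differed past the test, where 3.67% of all genes were higher under sh4 than under sh8. The median log2 fold change of the 10 was -0.15 under sh4 and -0.19 under sh8, against -0.01 over all genes tested in each comparison.

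Values are normalized counts: the reads of a gene in a library, divided by a size factor of that library. A gene is said to have risen or fallen where limma, on log2(normalized count + 1), gave a Benjamini-Hochberg adjusted p under 0.05 over the 15420 genes tested. All adjusted p-values here are from that test. All fold changes in log2 are on that scale, with the standard error (SE). Each hairpin was compared with the same 3 shlacZ libraries, so the comparisons of sh4 and of sh8 with shlacZ are not independent. The labels do not say whether libraries of a group came from separate cultures, so the p-values measure only the spread between these libraries.

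The reads counted in the 21305 genes, as recovered from the normalized counts, ran from 13337317 to 22855232 per library. They are not the number of reads sequenced. GRASLND itself lay between 289.7 and 329.9 in the shlacZ libraries, 131 and 175 under sh4, and 163 and 227 under sh8, so that every library of a GRASLND hairpin lay under every control library. GRASLND fell under sh4, with a log2 fold change of -1.02 (SE 0.21, adjusted p 0.00662). Under sh8 its log2 fold change was -0.68 (SE 0.21, adjusted p 0.110), which did not pass the test. The sum of 7 melanocytic genes (MITF, MLANA, PMEL, TYR, DCT, TYRP1 and SOX10), which mark the labelled cell type, was between 135575 and 146343 in the shlacZ libraries, 51868 and 59737 under sh4, and 101544 and 104484 under sh8. All 7 were present in every group. Under sh4, 6 of the 7 fell, beside 11.9% of all genes, and TYR had 0.15 (adjusted p 0.464). None passed the test under sh8, where 1.54% of all genes fell. At an unadjusted p under 0.05, limma had 5 of the 7 lower under sh8, beside 9.69% of all genes. MITF fell under sh4 by 0.71 (SE 0.13, adjusted p 0.00483) on the log2 scale and had -0.13 (adjusted p 0.658) under sh8. Of the markers of other cells, LYZ alone rose, from a mean of 2.0 under shlacZ to 414 under sh4, while the sum of the leukocyte genes with values (CD68 and LYZ) was 498 to 675 under shlacZ, 914 to 933 under sh4 and 573 to 678 under sh8. The sum of the keratinocyte genes KRT10 and DSG3 was 143 to 219 over the 7 libraries, and that of the fibroblast genes COL1A1 and PDGFRA was 6.28 to 19.4. Other markers listed for these cells, the 4 endothelial ones included, had no entry by symbol among the 21305 genes. Those genes had at least 10 reads summed over the 7 libraries, and 4633 of them carried no symbol. The part that the fall of the melanocytic genes or the rise of LYZ had in the results below was not tested. In bulk RNA, fewer cells of a kind and less RNA per cell cannot be told apart.

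The 250 bases before the transcription start of 5 members are shown first, because the letters that HIF-1 binds lie in such stretches and the 5 genes behaved differently: SLC2A1 and HIF1A rose under sh4, HK2 and LDHA fell, and PGK1, a textbook HIF-1 target, did not pass the test. The sequences are from RefSeq on GRCh38.p14, read 5′ to 3′ on the strand of the gene, and capitals mark ACGTG or GCGTG on either strand. The SLC2A1 stretch is chr1:42958869-42959118 on the minus strand, and the others are on the plus strand at chr14:61695263-61695512 (HIF1A), chr2:74833877-74834126 (HK2), chr11:18394313-18394562 (LDHA) and chrX:78103998-78104247 (PGK1).
SLC2A1 promoter: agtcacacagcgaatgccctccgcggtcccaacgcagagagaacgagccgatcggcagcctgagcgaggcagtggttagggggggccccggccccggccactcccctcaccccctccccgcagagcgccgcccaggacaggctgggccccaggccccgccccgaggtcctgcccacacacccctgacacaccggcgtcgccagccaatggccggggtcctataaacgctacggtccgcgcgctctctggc
HIF1A promoter: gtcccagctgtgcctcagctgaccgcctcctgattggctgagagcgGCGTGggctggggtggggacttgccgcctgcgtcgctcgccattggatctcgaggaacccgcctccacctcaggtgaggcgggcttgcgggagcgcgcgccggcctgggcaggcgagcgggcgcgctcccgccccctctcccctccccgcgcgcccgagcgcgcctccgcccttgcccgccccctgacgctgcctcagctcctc
HK2 promoter: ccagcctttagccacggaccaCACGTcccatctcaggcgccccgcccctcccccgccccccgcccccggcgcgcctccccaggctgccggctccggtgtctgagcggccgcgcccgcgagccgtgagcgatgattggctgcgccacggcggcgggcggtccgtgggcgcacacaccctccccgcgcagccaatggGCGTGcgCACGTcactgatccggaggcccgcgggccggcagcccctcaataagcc
LDHA promoter: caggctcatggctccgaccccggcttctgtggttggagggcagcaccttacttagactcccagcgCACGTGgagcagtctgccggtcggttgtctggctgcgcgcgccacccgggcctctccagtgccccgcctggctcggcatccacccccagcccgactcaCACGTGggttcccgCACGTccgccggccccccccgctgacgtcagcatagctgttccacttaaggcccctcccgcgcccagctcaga
PGK1 promoter: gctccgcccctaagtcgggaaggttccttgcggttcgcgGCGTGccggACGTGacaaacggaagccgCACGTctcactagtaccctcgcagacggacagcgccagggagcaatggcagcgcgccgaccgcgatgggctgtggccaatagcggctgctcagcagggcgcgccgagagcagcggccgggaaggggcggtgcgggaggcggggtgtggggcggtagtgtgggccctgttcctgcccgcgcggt

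Of the 10 members, 8 had a RefSeq promoter entry, with 12 start sites between them, and VEGFA and NDRG1 had none. ACGTG or GCGTG was found in 10 of these 12 stretches, which belong to 7 of the 8 genes, and in 43.2% of the promoter stretches of all genes (15172 of 35116). The longer motif CACGTG, which holds ACGTG on each strand and is the E-box letters bound by MITF and MYC as well as part of some HIF-1 sites, was found in 4 of the 12 stretches, 1 each of HK2, PFKFB3, BNIP3 and LDHA, and in 6.34% of all stretches. LDHA carried it at 2 places, with first bases 185 and 87 bases before the start. HK2 carried it at 2 places too, but at its second start site, which is not the stretch shown. PGK1 had 3 of the shorter motifs, between 211 and 183 bases before its start, HIF1A had 1, and SLC2A1 had none in the stretch shown. A match of letters is a description, and no match says only that these letters are not in this stretch.

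HIF1A (ENSG00000100644, chromosome 14 from 61695513 to 61748259 on the plus strand of hg38) encodes the oxygen-regulated subunit of HIF-1. Its normalized count was 4860.0, 5616 and 6022 with shlacZ, 8754 and 12729.6 with sh4, and 6049 and 6589.9 with sh8. Both sh4 libraries lay above all others, while the sh8 libraries lay just above the highest control. The shlacZ mean of 5499 ± 590 (SD, n = 3) compares with 10742 ± 2812 (SD, n = 2) for sh4 and with 6319 ± 383 (SD, n = 2) for sh8. HIF1A rose under sh4, with a log2 fold change of 0.95 (SE 0.16, adjusted p 0.00341), a level 95.3% above the control. Under sh8 the log2 fold change was 0.20 (SE 0.16, adjusted p 0.549), with a 95% confidence interval of -0.16 to 0.57. The direct comparison put HIF1A higher under sh4 than under sh8 by 0.74 (SE 0.18, adjusted p 0.0375). That difference did not pass the test without the second shlacZ library (adjusted p 0.0572), the second sh4 library (0.252), the first sh8 library (0.216) or the second sh8 library (0.121), whereas the rise under sh4 held without any 1 library. Of the overlapping transcripts, the antisense genes HIF1A-AS1 and HIF1A-AS3 had mean counts of only 1.47 and 3.57, and 2 unnamed non-coding genes on the same strand had 125 and 77.1.

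SLC2A1 (ENSG00000117394, chromosome 1 from 42925353 to 42958893 on the minus strand) encodes GLUT1, the basal glucose transporter of the plasma membrane. Its normalized count was 1209.6, 1656 and 1813 under shlacZ, 2804 and 3738 under sh4, and 2917 and 3199 under sh8. All 4 libraries of the GRASLND hairpins exceeded all 3 controls, and the sh8 pair lay within the range of the sh4 pair. SLC2A1 rose by 1.07 (SE 0.18, adjusted p 0.00319) under sh4 and by 0.99 (SE 0.18, adjusted p 0.0226) under sh8 on the log2 scale. The difference between the hairpins was 0.08, with a 95% confidence interval of -0.37 to 0.54 (adjusted p 0.854). The rise under sh4 held in all 18 alternative fits. The rise under sh8 did not pass the test without the second shlacZ library (adjusted p 0.0574), the first sh8 library (0.118) or the second sh8 library (0.193), although its size stayed between 0.82 and 1.11.

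HK2 (ENSG00000159399, chromosome 2 from 74834127 to 74893359 on the plus strand) encodes hexokinase 2, which traps glucose in the cell as glucose 6-phosphate and is the inducible hexokinase of many tumours. Its normalized count was 1856, 2325 and 2393 under shlacZ, 1330.4 and 1209 under sh4, and 1646 and 1556 under sh8. The sh4 libraries were the lowest, the sh8 libraries lay between, and no group overlapped another. HK2 fell under sh4 by 0.78 (SE 0.14, adjusted p 0.00353) on the log2 scale, a ratio of means of 0.579, and this held in all 18 alternative fits. Under sh8 the log2 fold change was -0.44 (SE 0.14, adjusted p 0.120), and it passed the test without the first shlacZ library (-0.56, adjusted p 0.0166). The difference between the hairpins was -0.34 (adjusted p 0.221), with a 95% confidence interval of -0.67 to -0.00045.

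LDHA (ENSG00000134333, chromosome 11 from 18394560 to 18408425 on the plus strand) encodes the lactate dehydrogenase subunit that favours the step from pyruvate to lactate. It was the most abundant member, with 13406, 18156 and 16242.5 under shlacZ, 8986 and 10462 under sh4, and 11919.7 and 10778 under sh8. All 4 libraries of the GRASLND hairpins lay under all 3 controls, and both sh4 libraries lay under both sh8 libraries. LDHA fell under sh4 by 0.71 (SE 0.15, adjusted p 0.00825) on the log2 scale, which did not pass the test without the first sh4 library (adjusted p 0.0896). Under sh8 the log2 fold change was -0.48 (SE 0.15, adjusted p 0.119), and it passed without the first shlacZ library (-0.60, adjusted p 0.0190). The difference between the hairpins was -0.23, with a 95% confidence interval of -0.59 to 0.14 (adjusted p 0.465). LDHA has processed pseudogenes whose reads the counting could have split from it; the most abundant, LDHAP4, had a mean of 57.5.

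NDRG1 (ENSG00000104419, chromosome 8 from 133237175 to 133302022 on the minus strand) encodes a stress-responsive protein that hypoxia induces in many cell types and that is linked to differentiation and to suppression of metastasis. It had the lowest level of the 10, with 95.0, 62.8 and 80.9 under shlacZ, 229 and 257 under sh4, and 89.6 and 146 under sh8. The sh4 libraries stood well above all others, while the first sh8 library lay within the range of the controls. NDRG1 rose under sh4 by 1.62 (SE 0.27, adjusted p 0.00257) on the log2 scale, a ratio of means of 3.06 and the largest change among the 10. This held in all 18 alternative fits. Under sh8 the log2 fold change was 0.54 (SE 0.27, adjusted p 0.319). Between sh4 and sh8 NDRG1 differed by 1.08 (SE 0.29) with an adjusted p of 0.0539, and 7 of 18 alternative fits put it past the threshold, among them the fit without the first shlacZ library (adjusted p 0.0237).

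**Figure D1:**
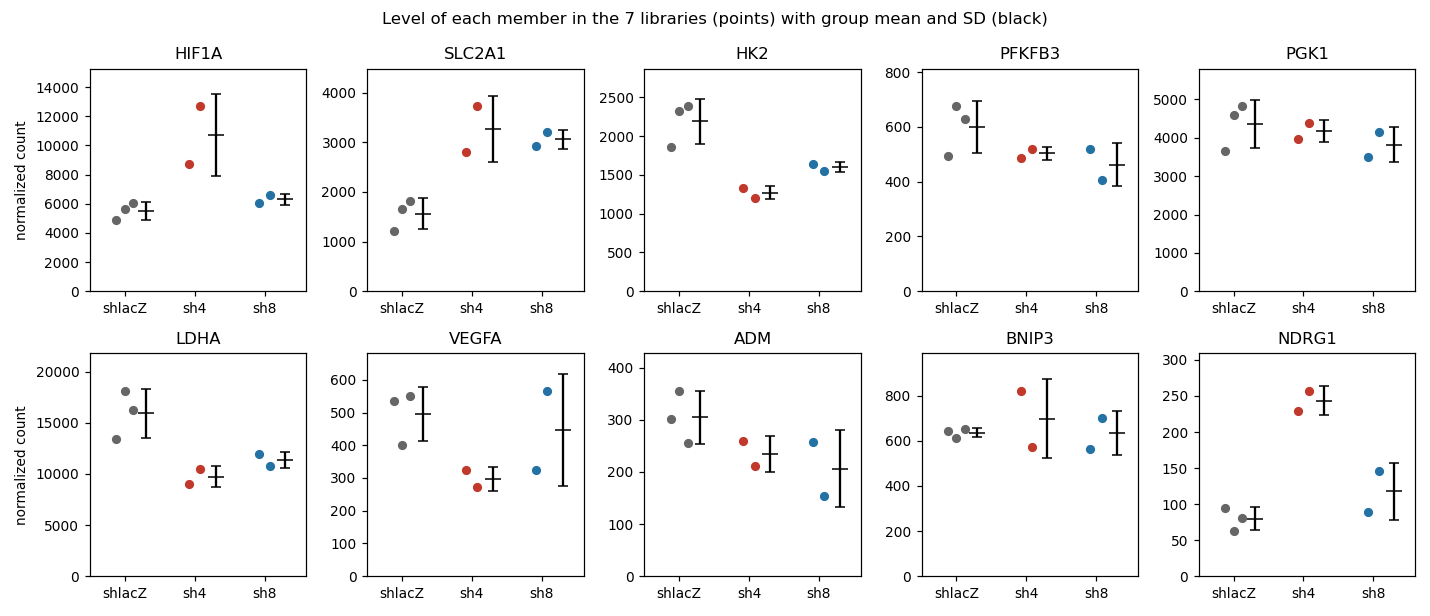
Normalized count (vertical axis, linear, from 0) of each of the 10 genes in the 7 libraries, with shlacZ in grey, sh4 in red and sh8 in blue, and the group mean with its SD in black. SLC2A1 lies higher in all 4 libraries of the GRASLND hairpins, HIF1A and NDRG1 stand apart under sh4, and HK2 and LDHA lie lower in all 4.

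The other 5 members did not pass the test in any of the 4 comparisons. VEGFA (ENSG00000112715, chromosome 6 from 43770184 to 43786487 on the plus strand), the main growth factor for blood vessels, came nearest. Its normalized count was 536, 401 and 549.8 under shlacZ, 323 and 271 under sh4, and 326 and 567 under sh8. Both sh4 libraries lay under every control, whereas 1 sh8 library lay under and 1 above the range of the controls. The log2 fold change was -0.73 (SE 0.24, adjusted p 0.0539) under sh4 and -0.19 (SE 0.24, adjusted p 0.713) under sh8. The sh4 value passed the test without the second shlacZ library (-0.87, adjusted p 0.0474), the first sh8 library (adjusted p 0.0270) or the second sh8 library (adjusted p 0.0285), and the sh8 value changed sign without the first sh8 library (0.21).

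ADM (ENSG00000148926, chromosome 11 from 10305073 to 10307397 on the plus strand) encodes adrenomedullin, a vasodilator peptide whose RNA is strongly raised by hypoxia in many cells. Its counts were 302, 356 and 256 under shlacZ, 259 and 210.5 under sh4, and 258 and 154 under sh8. The groups overlapped. Its log2 fold change was -0.37 (SE 0.24, adjusted p 0.306) under sh4 and -0.60 (SE 0.24, adjusted p 0.228) under sh8, and the sign of its difference between the hairpins (0.23) turned without the second sh8 library (-0.15).

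PFKFB3 (ENSG00000170525, chromosome 10 from 6144934 to 6254644 on the plus strand) makes fructose 2,6-bisphosphate, the activator of phosphofructokinase. Its counts were 494, 678 and 628 under shlacZ, 486 and 521 under sh4, and 518 and 408 under sh8. The log2 fold change was -0.24 (SE 0.17, adjusted p 0.355) under sh4 and -0.37 (SE 0.17, adjusted p 0.293) under sh8, with overlapping groups in both. PGK1 (ENSG00000102144), the phosphoglycerate kinase that makes the first ATP of glycolysis, lies on chromosome X from 77910739 to 78129295 on the plus strand, an annotated span that also overlaps ATP7A on the same strand. Its counts were 3652.5, 4603 and 4839 under shlacZ, 3973 and 4375 under sh4, and 3493 and 4139.97 under sh8. The log2 fold change of PGK1 was -0.06 (SE 0.15, adjusted p 0.825) under sh4 and -0.19 (SE 0.15, adjusted p 0.534) under sh8, and the sh4 value was 0.11 after quantile normalization. Its 95% confidence interval of -0.381 to 0.270 under sh4 did not hold the estimates for HK2 (-0.78) and LDHA (-0.71), but overlapped the LDHA interval (-1.036 to -0.375). Under sh8 its interval of -0.51 to 0.14 held both estimates (-0.44 for HK2 and -0.48 for LDHA). The difference between these genes was not tested.

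BNIP3 (ENSG00000176171, chromosome 10 from 131967684 to 131981967 on the minus strand) encodes a receptor that marks mitochondria for removal. Its counts were 645, 612 and 649.8 under shlacZ, 822 and 574 under sh4, and 564 and 702 under sh8. In each hairpin group 1 library lay above and 1 below the narrow range of the controls. The log2 fold change was 0.11 (SE 0.17, adjusted p 0.692) under sh4 and -0.01 (SE 0.17, adjusted p 0.978) under sh8, and the latter was 0.04 after upper quartile scaling and 0.02 after quantile normalization. BNIP3 and PGK1 so had values of either sign, depending on the scaling.

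**Figure D2:**
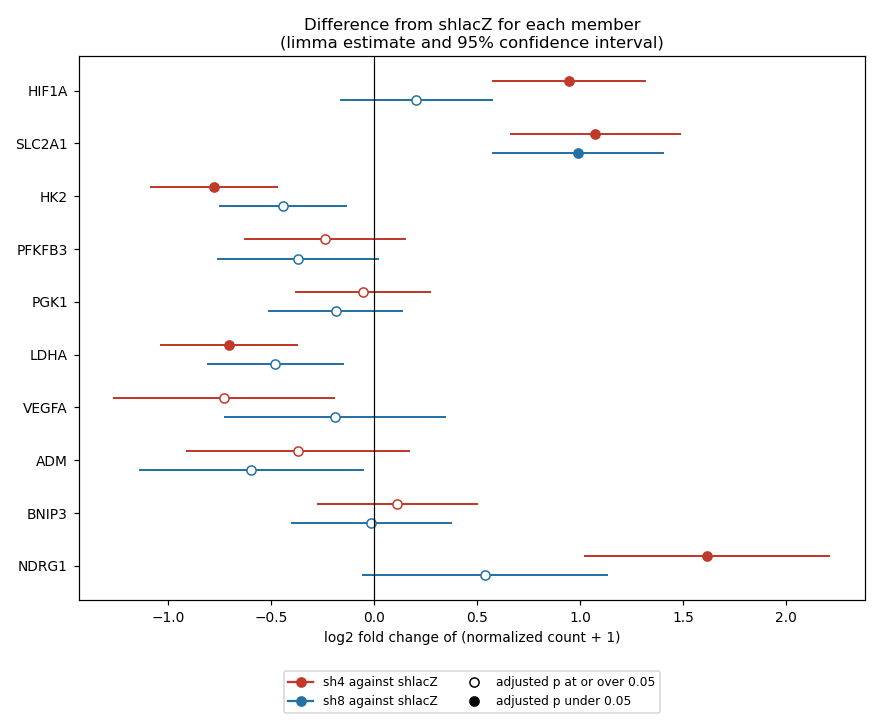
Log2 fold change of (normalized count + 1) against shlacZ (horizontal axis) for each of the 10 genes, in red for sh4 and blue for sh8, with the limma 95% confidence interval as a line and filled points where the adjusted p was under 0.05. Filled points are HIF1A, SLC2A1, HK2, LDHA and NDRG1 for sh4, and SLC2A1 alone for sh8.

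The counts of members read as follows against all genes tested. Under sh4, 3 of 10 rose, where 10.5% of all genes rose, and 2 of 10 fell, where 11.9% of all genes fell. With the added demand of an absolute log2 fold change over 1, which the study used, 2 of 10 remained (SLC2A1 and NDRG1), beside 8.16% of all genes. Under sh8, 1 of 10 rose (1.38% of all genes), 0 of 10 fell (1.54%), and 0 of 10 passed the fold as well (1.15%). At an unadjusted p under 0.05, limma had 3 of the 10 lower under sh8 (HK2, LDHA and ADM), beside 9.69% of all genes. At an adjusted p under 0.05, limma-voom on whole reads had 1 higher and 0 lower, as limma had. The value 0.99 of SLC2A1 under sh8 lay just under the fold limit. For sh4 against sh8, 1 of 10 was higher (3.67% of all genes), 0 of 10 were lower (3.33%), and 0 of 10 passed the fold (3.19%). At an unadjusted p under 0.05, limma had 2 of the 10 higher (HIF1A and NDRG1) and 1 lower (HK2), beside 11.3% of all genes in each direction. At an adjusted p under 0.05, limma-voom had 2 higher and 0 lower.

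Taking sh4 and sh8 as 1 group of 4 libraries, SLC2A1 rose by 1.03 (SE 0.16, adjusted p 0.0123), while HK2 fell by 0.61 (SE 0.15, adjusted p 0.0453) and LDHA fell by 0.59 (SE 0.15, adjusted p 0.0497). That is 1 of 10 higher and 2 of 10 lower, beside 2.55% and 2.06% of all genes, and SLC2A1 alone passed the fold limit, beside 1.99%. Of all genes called in this comparison 55.3% were higher, and 65.6% after upper quartile scaling. SLC2A1 missed the threshold without the second shlacZ library (adjusted p 0.0597). HK2 and LDHA stood close to the threshold and did not pass it without the second shlacZ library, the third shlacZ library, either sh4 library or the second sh8 library, with adjusted p-values up to 0.199 for HK2 and 0.225 for LDHA. HIF1A (0.58, adjusted p 0.164) and NDRG1 (1.08, adjusted p 0.0963) did not pass, and NDRG1 passed without the first sh8 library (1.37, adjusted p 0.0214). This fit counts the difference between sh4 and sh8 as spread. With the mean of both hairpins taken from the fit with 3 groups, HIF1A (adjusted p 0.0204) and NDRG1 (adjusted p 0.0106) both passed. In that fit 2534 of the 15420 genes passed, against 711 in the fit with 2 levels.

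Levels of different genes were compared per kilobase of annotated exon. That length is the union of exons over all transcripts, not the length of the transcript expressed, so the order of genes depends on the annotation. In the shlacZ libraries LDHA had the highest level, 2644 ± 397 (SD, n = 3) normalized counts per kb, followed by HIF1A (1068 ± 114), PGK1 (803 ± 116), HK2 (370 ± 49.5), SLC2A1 (236 ± 47.3), BNIP3 (157 ± 5.13), ADM (131 ± 21.6), PFKFB3 (98.1 ± 15.5), VEGFA (34.3 ± 5.68) and NDRG1 (6.63 ± 1.34). ADM overlapped in range with both of its neighbours in this order, BNIP3 and PFKFB3, and the other neighbours did not overlap. Counts of NDRG1 came from only 60 to 345 reads per library, and those of LDHA from 7957 to 18671.

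Paralogs were described whatever their result. EPAS1, the second oxygen-regulated subunit (HIF-2α), had 655, 769 and 716 under shlacZ, 1119 and 1675 under sh4, and 671 and 779.9 under sh8. It rose under sh4 by 0.94 (SE 0.18, adjusted p 0.00485) and differed between the hairpins by 0.92 (SE 0.19, adjusted p 0.0206), as HIF1A did. The ratio of HIF1A to EPAS1 per kb was 10.9 ± 0.862 under shlacZ, 10.9 ± 0.221 under sh4 and 12.4 ± 0.567 under sh8. SLC2A3, which encodes the high-affinity transporter GLUT3, had 381, 504 and 823 under shlacZ, 1703 and 2223 under sh4, and 738 and 1246 under sh8, and rose under sh4 by 1.85 (SE 0.31, adjusted p 0.00283). The ratio of SLC2A1 to SLC2A3 per kb was 3.17 ± 0.654 under shlacZ, 1.82 ± 0.0268 under sh4 and 3.57 ± 1.07 under sh8.

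HK1 is the housekeeping hexokinase. Its log2 fold change was 0.26 (adjusted p 0.277) under sh4, and its counts of 1577 to 2055 under shlacZ overlapped those under sh4 (1954 and 2531). The ratio of HK2 to HK1 per kb was 1.37, 1.38 and 1.35 with shlacZ, 0.791 and 0.555 with sh4, and 1.13 and 0.893 with sh8. On these annotated lengths, the ratio lay above 1 in every control library and in 1 sh8 library, and under 1 in both sh4 libraries. Which of the genes had more RNA per kb depends on the exon lengths used, whereas the fold of the ratio between groups does not. LDHB, the subunit that favours the step from lactate to pyruvate, fell under sh4 by 0.70 (SE 0.13, adjusted p 0.00463), from 7170 to 8607 under shlacZ down to 4435 and 5426. The ratio of LDHA to LDHB per kb differed between shlacZ and sh4 by less than its spread, at 0.984 ± 0.0594 under shlacZ and 0.979 ± 0.0343 under sh4, with 0.878 ± 0.0808 under sh8.

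NDRG3, the family member with the highest count, had a log2 fold change of -0.16 (adjusted p 0.491) under sh4, and NDRG2 one of 0.28 (adjusted p 0.331). The ratio of NDRG1 to NDRG3 per kb was 0.0173 ± 0.00447 under shlacZ, 0.0586 ± 0.00336 under sh4 and 0.0231 ± 0.00350 under sh8. BNIP3L (NIX), the close relative of BNIP3, had -0.03 under sh4 and 0.33 under sh8, and VEGFB had -0.37 and -0.15. PFKFB2 had -0.14 and -0.38, and PFKFB4 had -0.27 and -0.57. None of these 6 passed the test in any comparison. PFKFB1, VEGFC and NDRG4 had at most 9.23 normalized counts in a library and were not tested. ADM2 had no entry by symbol, and PGK2 was not analysed here.

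**Figure D3:**
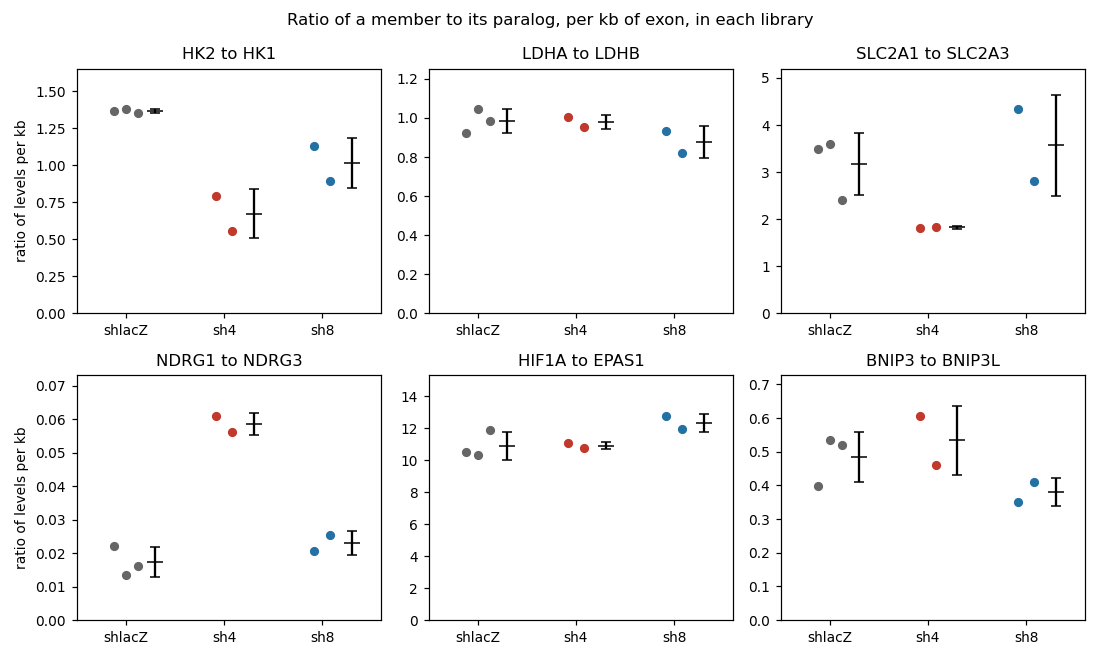
Ratio of a member to its paralog, each per kb of annotated exon (vertical axis, linear, from 0), in each library, with shlacZ in grey, sh4 in red, sh8 in blue and the group mean with its SD in black. The mean ratio of HK2 to HK1 is 1.37 under shlacZ, 0.673 under sh4 and 1.01 under sh8, that of NDRG1 to NDRG3 is highest under sh4, and that of LDHA to LDHB is 0.878 to 0.984.

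The rest of the pathway was read from gene lists that include members. Each count under sh4 stands beside 10.5% of all genes tested that rose and 11.9% that fell, and each count under sh8 beside 1.38% and 1.54%. Of 12 genes of oxygen sensing tested, 3 rose (HIF1A, EPAS1 and CITED2) and 2 fell (EGLN1 and EGLN3) under sh4, and none passed under sh8. EGLN3, a prolyl hydroxylase that is itself a HIF target, fell furthest, from 54.7, 69.1 and 42.6 under shlacZ to 5.65 and 8.21 under sh4, with 36.9 and 23.7 under sh8. Its log2 fold change was -2.82 (SE 0.38, adjusted p 0.000943) under sh4, and the difference of sh4 from sh8 was -1.97 (adjusted p 0.0209). CITED2, which competes with HIF1A for the coactivators EP300 and CREBBP, rose under sh4 by 0.88 (adjusted p 0.00439), and EGLN1, the main oxygen sensor, fell by 0.39 (adjusted p 0.0379). Under sh8 CITED2 had 0.42 (adjusted p 0.203) and EGLN1 had -0.36 (adjusted p 0.134). ARNT, the partner of HIF1A, had a log2 fold change of 0.44 under sh4 with an adjusted p of 0.0501.

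Of 9 transport genes tested, 3 glucose transporters rose under sh4 (SLC2A1, SLC2A3 and SLC2A10) and 2 carriers of lactate and pyruvate fell (SLC16A1 and SLC16A7), while under sh8 SLC2A1 alone rose and none fell. SLC2A10 had 47.5, 81.7 and 80.0 under shlacZ, 225 and 288 under sh4, and 77.8 and 99.2 under sh8. It rose under sh4 by 1.89 (SE 0.28, adjusted p 0.00158) and was higher than under sh8 by 1.52 (adjusted p 0.0176). SLC16A7 (MCT2) fell under sh4 by 0.91 (SE 0.11, adjusted p 0.000698), from 3126, 3211 and 3164 to 1561 and 1824, with 2421 and 2229 under sh8. SLC16A1 (MCT1) fell under sh4 by 0.62 (adjusted p 0.0250).

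Of 18 glycolytic enzyme genes tested, 2 rose (ENO2 and ENO3) and 3 fell (HK2, LDHA and LDHB) under sh4, beside 10.5% and 11.9% of all genes, and none passed under sh8. The median log2 fold change of the 18 was -0.17 under sh4 and -0.20 under sh8, with 12 and 16 of the 18 below 0, against -0.01 over all genes tested in each. The other 13 did not pass the test under sh4, with values from -0.51 to 0.26, and ALDOC (-0.51, adjusted p 0.0533), ENO1 (-0.46, adjusted p 0.0591) and PFKM (-0.39, adjusted p 0.0592) came nearest. ENO2, the neuronal enolase, had 767, 782 and 782 under shlacZ, 1217 and 1051 under sh4, and 456 and 633 under sh8. It rose under sh4 by 0.54 (adjusted p 0.0337), and it was higher under sh4 than under sh8 by 1.07 (SE 0.17, adjusted p 0.00662), with no overlap of any group with another. ENO3, the muscle enolase, rose under sh4 by 1.34 (SE 0.36, adjusted p 0.0254) from a mean of 65.4 to 161. Of the 4 genes tested among the PFKFB enzymes and TIGAR, which set the level of fructose 2,6-bisphosphate, none passed under either hairpin, and all 4 had values below 0 in both.

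**Figure D4:**
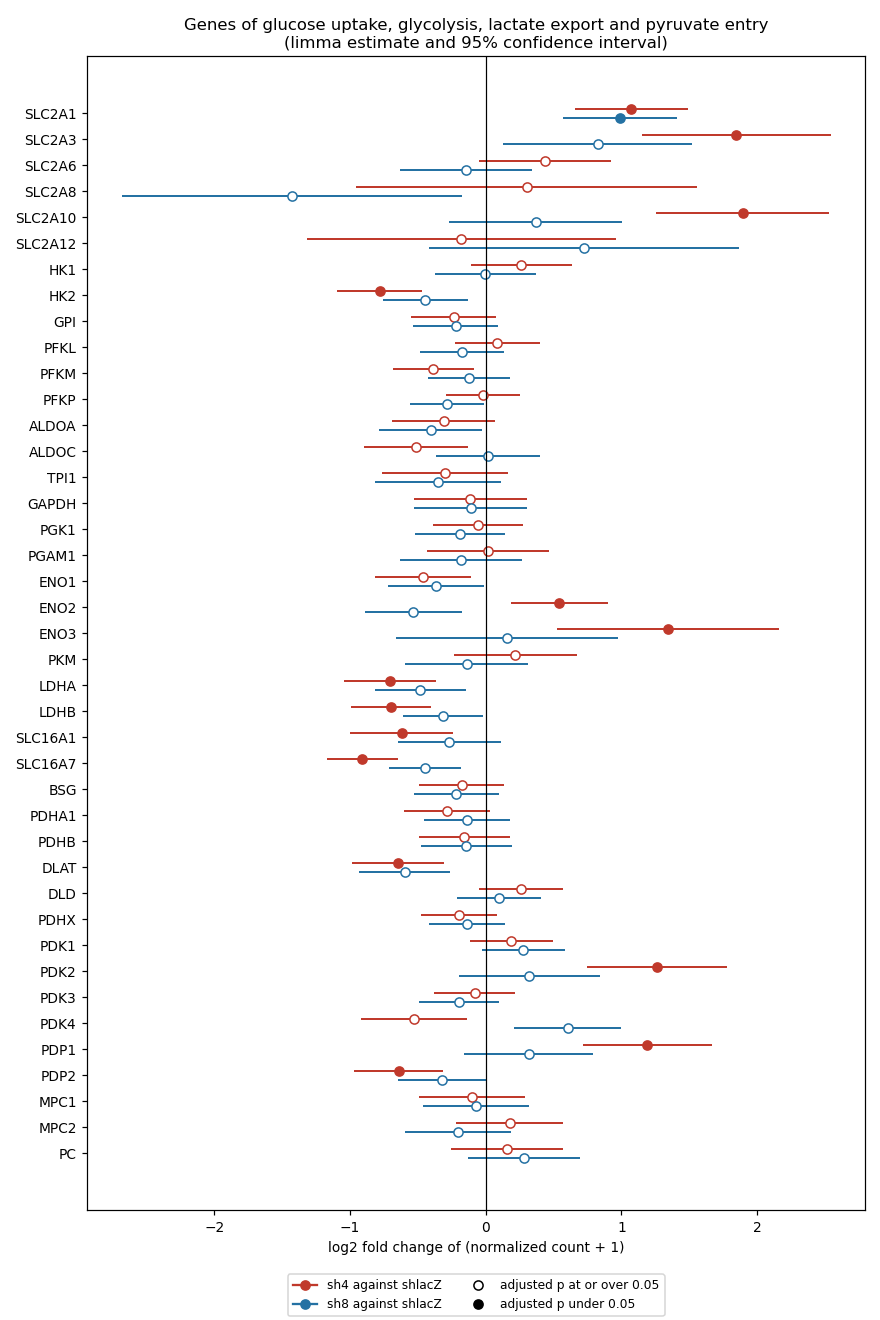
Log2 fold change of (normalized count + 1) against shlacZ (horizontal axis) for every tested gene of glucose uptake, glycolysis, lactate and pyruvate transport and pyruvate entry into mitochondria, from top to bottom, in red for sh4 and blue for sh8, with 95% confidence intervals and filled points where the adjusted p was under 0.05. The glucose transporters SLC2A1, SLC2A3 and SLC2A10 lie to the right under sh4, and HK2, LDHA, LDHB, SLC16A1 and SLC16A7 lie to the left.

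Of 14 genes for the entry of pyruvate into mitochondria, 2 rose (PDK2 and PDP1) and 2 fell (DLAT and PDP2) under sh4, beside 10.5% and 11.9% of all genes. PDK2 phosphorylates and so turns off pyruvate dehydrogenase, and PDP1 and PDP2 are phosphatases that turn it back on. The log2 fold changes were 1.26 for PDK2 (adjusted p 0.00416), 1.19 for PDP1 (adjusted p 0.00350), -0.65 for DLAT, a core subunit of the complex (adjusted p 0.0122), and -0.64 for PDP2 (adjusted p 0.0113). Under sh8 the values were 0.32 for PDK2, 0.32 for PDP1, -0.60 for DLAT and -0.32 for PDP2, and none passed. PDP1 was also higher under sh4 than under sh8 by 0.87 (SE 0.23, adjusted p 0.0496), which was lost without any library other than the first shlacZ and the first sh4 library. PDK4, another kinase of the complex, was lower under sh4 than under sh8, with a log2 difference of -1.13 (SE 0.19, adjusted p 0.00779), with values of 6878, 6021 and 7829 under shlacZ, 4625 and 4898 under sh4, and 8593 and 12684 under sh8. Against shlacZ it passed under neither hairpin (-0.53, adjusted p 0.0520, and 0.60, adjusted p 0.0947). PDK1, the kinase best known as a HIF-1 target, had 0.19 (adjusted p 0.342) under sh4.

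Of 23 HIF target genes tested, 4 rose and 5 fell under sh4, beside 10.5% and 11.9% of all genes, and SLC2A1 alone rose and none fell under sh8. HK2, LDHA and PGK1, targets of HIF-1 as well, were counted with the glycolytic enzymes and are not among the 23. The 4 were SLC2A1, NDRG1, SLC2A3 and P4HA2, a collagen prolyl hydroxylase (0.93, adjusted p 0.0141). Those that fell were EGLN1, EGLN3, MXI1, an antagonist of MYC (-0.85, adjusted p 0.00423), ZNF395 (-0.74, adjusted p 0.0192) and ERO1A, an oxidase of the endoplasmic reticulum (-0.47, adjusted p 0.0125). Under sh8 MXI1 had -0.54, ZNF395 -0.24 and ERO1A -0.09, and none of these passed. The median over the 23 was 0.10 under sh4 and 0.11 under sh8, against -0.01 over all genes tested in each. Among 5 tested genes of VEGF and adrenomedullin signalling, NRP2, a co-receptor for VEGF, fell under sh4 by 0.42 (adjusted p 0.0220) and none rose. Under sh8 NRP2 had -0.41 (adjusted p 0.0813), which did not pass. Among 7 mitophagy receptors, NLRX1 rose by 0.76 (adjusted p 0.0190) and was higher than under sh8 by 0.87 (adjusted p 0.0379), and PHB2 fell by 0.53 (adjusted p 0.0301). Of 3 NDRG genes tested, NDRG1 alone rose. Under sh8 the counts of 0 stood beside genes at an unadjusted p under 0.05 in limma: 2 higher and 3 lower in oxygen sensing, 7 lower among the glycolytic enzymes, 1 lower among the PFKFB enzymes and TIGAR, 1 higher and 1 lower for pyruvate entry, 4 lower among the HIF targets, 2 lower for transport and 2 lower for VEGF and adrenomedullin signalling. At that threshold 8.85% of all genes were higher and 9.69% lower. In limma-voom these lists had 0 calls under sh8 other than SLC2A1. With both hairpins as 1 group, the genes of these lists that passed, members aside, were SLC16A7, DLAT and MXI1. They fell, by 0.68 (adjusted p 0.0391), 0.62 (adjusted p 0.0331) and 0.70 (adjusted p 0.0383), beside 2.06% of all genes. Each of these calls was lost in some fits without 1 library.

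The calls of EGLN3, SLC2A3, SLC2A10 and SLC16A7 under sh4 held without any 1 library. Those of EPAS1 (adjusted p 0.0562), CITED2 (0.0589), PDK2 (0.0567), PDP1 (0.0511) and MXI1 (0.0567) were lost without the second sh4 library, and those of LDHB (0.0576) and DLAT (0.128) without the first. PDP2 was lost without the third shlacZ library (0.0501) or the first sh4 library (0.116), ERO1A without the same libraries (up to 0.112), ZNF395 without the third shlacZ library (0.0515) or the second sh4 library (0.172), and P4HA2 without either sh4 library (up to 0.122). SLC16A1, ENO2, ENO3, NRP2 and PHB2 were lost without the second shlacZ library, the third shlacZ library or either sh4 library, NLRX1 without the second shlacZ library or either sh4 library, and EGLN1 without any library other than the first shlacZ. Of the differences between sh4 and sh8, EPAS1 was lost without the second sh4 or either sh8 library (up to 0.172), EGLN3 and SLC2A10 without any library of either hairpin (up to 0.163 and 0.181), ENO2 without either sh4 or the first sh8 library (up to 0.0605), PDK4 without either sh4 or the second sh8 library (up to 0.0764), and NLRX1 in all but the fit without the first shlacZ library.

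The members were also compared with each other by the root mean square difference of their log2 values over the 7 libraries, after each gene was centred on its mean. Of the 45 pairs of members, HK2 and LDHA were the most alike (0.119), followed by PFKFB3 and PGK1 (0.189), and HK2 and NDRG1 were the least alike (1.05). The same measure over 12050 genes with a mean of at least 50 named the genes whose pattern was nearest to each member that passed a test. They were CRLS1, SSH1 and VASP for HIF1A (0.0557 to 0.0849), FAM171B, YWHAH and RHOJ for SLC2A1 (0.0667 to 0.123), SLX9, LDHAP4 and EYA1 for HK2 (0.0372 to 0.0682), EIF4G1, PRPS1 and PRMT3 for LDHA (0.0419 to 0.0509), and FOXO1, MR1 and RAB30 for NDRG1 (0.0558 to 0.107). All these genes were read from the same 7 libraries and scaled by the same size factors, and no test was made on the likeness.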

How the data were processed

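The authors depleted ribosomal RNA, made stranded libraries, trimmed reads with Cutadapt, aligned them to hg38 with STAR, quantified genes with Salmon and normalized with DESeq2, per the methods of the study. Versions were not given in the sources used here. The authors deposited 1 table of normalized counts (read counts per gene divided by a size factor), a value on another scale than raw counts, with at least 10 reads per gene summed over the 7 libraries. All values (100%) were whole multiples of 1 read within 0.001, so whole reads were recovered for the totals of counted reads and for limma-voom. Such scaling hides a change common to nearly all genes.

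Groups and replicate numbers came from the titles in the labels, and 0 columns belonged to other samples. The members and gene lists were chosen with earlier results of these data known. limma 3.58.1 in R 4.3.3 was fitted on log2(normalized count + 1) with a variance trend for genes with a mean of at least 10, with Benjamini-Hochberg adjustment over all 15420 genes. Each hairpin and the difference between hairpins came from a fit with 3 groups, and both hairpins together from a fit with 2 levels, as the study pooled its hairpins. The test was checked on data simulated with the same spread between libraries for every gene and no outlying library. That check does not cover the unequal spread between replicates given below. A low gene's fold change is understated on this scale. Replicates differed by more than counting noise (mean chi-square per gene at least 9.47), so none was counted as a copy. Among the controls, shlacZ replicate 1 stood apart, at 31.7 from replicate 2 and 30.8 from replicate 3, against 9.47 between replicates 2 and 3. The sh4 pair had 21.1 and the sh8 pair 18.0. GENCODE release 44 (hg38) held 21281 (99.9%) of the identifiers and supplied coordinates and exon lengths, the union over transcripts.

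Named were all 10 members, the listed paralogs, GRASLND, up to 5 changed genes per list with the largest absolute log2 fold change, and the 3 genes most like each changed member. ERO1A, ARNT, ALDOC, ENO1, PFKM and PDK1 were named after their values were seen. Alternatives covered the pseudocount, the minimum mean, scaling, the variance model, the replicate number as a block, the libraries in the fit, limma-voom and leaving out each library.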

Additional observations from a re-analysis of the deposited data

Results flagged for a closer look

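HIF1A is given here because its response to the hairpins differed by a test of the difference itself. The log2 difference of sh4 from sh8 was 0.74 (SE 0.18, limma adjusted p 0.0375), with both sh4 libraries above both sh8 libraries (8754 and 12729.6 against 6049 and 6589.9 normalized counts). The sum of the melanocytic genes was lower where HIF1A was higher, at 51868 to 59737 under sh4 against 101544 to 104484 under sh8. MITF was lower under sh4 than under sh8, with a log2 difference of -0.59 (limma adjusted p 0.0415), a call kept in 10 of 18 alternative fits. The part of these genes in the HIF1A difference was not tested. GRASLND itself was 131 and 175 under sh4 and 163 and 227 under sh8.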

How the results depend on the processing

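The count of members that changed under sh4 was 5, and 4 to 6 when 1 library was left out. Under sh8 it was 1, became 0 without the variance trend, and ran from 0 to 3 when 1 library was left out. For sh4 against sh8 it was 1, became 2 with a pseudocount of 10, a mean of at least 50, quantile normalization, the replicate block, only the groups compared or limma-voom, became 0 without the variance trend, and ran from 0 to 2 when 1 library was left out. For both hairpins against shlacZ it was 3, became 0 without the variance trend, 1 with the replicate block and 5 when the mean of both hairpins was taken from the fit with 3 groups, and ran from 0 to 4 when 1 library was left out. Where a hairpin was left with 1 library, that library is assumed to vary like the other groups. The settings also moved the calls over all genes tested. For both hairpins 711 genes passed in the fit with 2 levels. That was 138 without the variance trend, 42 with the replicate block and 2534 with the mean from the fit with 3 groups. Under sh8, 59 passed without the variance trend. For sh4 against sh8, 1079 passed, and 476 without the variance trend. The number was 1090 of 12050 genes with a mean of at least 50. In the other settings named above with 2 members it was 1101 to 1475. Leaving out a control library also moved the calls over all 15420 genes. With all libraries 3464 genes passed under sh4 and 451 under sh8. These were 4865 and 1600 without shlacZ replicate 1, 2251 and 153 without replicate 2, and 2300 and 203 without replicate 3. Under sh8, HK2 and LDHA passed only in the fit without shlacZ replicate 1. The causes were not tested.

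Signs turned only where a member did not pass the test in that comparison, in 17 of 720 values of members. PGK1 under sh4 was 0.11 with quantile normalization and 0.024 with the replicate block, and -0.18 to 0.024 when 1 library was left out. BNIP3 under sh8 was 0.037 with upper quartile scaling, 0.020 with quantile normalization and 0.0024 with the replicate block. When 1 library was left out, BNIP3 ran from -0.17 to 0.14 under sh8 (0.0024 without the third shlacZ), -0.15 to 0.37 under sh4, -0.13 to 0.39 for sh4 against sh8 (-0.031 without the first sh8 library) and -0.058 to 0.12 for both hairpins. PGK1 under sh4 was 0.014 without the first sh4 library. In the same fits VEGFA under sh8 ran from -0.59 to 0.21, and for sh4 against sh8 SLC2A1 ran from -0.12 to 0.29, PFKFB3 from -0.042 to 0.30 and ADM from -0.15 to 0.60.

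Replicate numbers are shared by the groups, and the labels do not say whether they mark a pairing. Over 12050 genes, deviations of same-numbered libraries from their group means correlated at 0.48 and 0.35 between shlacZ and sh4. Between shlacZ and sh8 the correlations were 0.12 and -0.15. Between sh4 and sh8 both were about 0, and equal by construction, since deviations in a group of 2 libraries mirror each other. Whether a replicate number marks a shared batch was not tested. With the replicate block, HK2 (-0.54, adjusted p 0.229) and LDHA (-0.57, adjusted p 0.205) for both hairpins did not pass, nor did ENO2 (0.55, adjusted p 0.0516) and EGLN1 (-0.37, adjusted p 0.0833) under sh4, and NDRG1 for sh4 against sh8 did (adjusted p 0.0478). edgeR and DESeq2, planned as alternatives, were not run: the table has decimal commas and could not be declared as whole reads. Depth limits genes of few reads, such as EGLN3 (5 to 66 reads per library), ENO3 (42 to 174) and NDRG1 (60 to 345).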
